A study of Mus musculus with 4 samples.

Results

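Cadherins and protocadherins, 2 related groups of adhesion genes, were followed in sequenced single nuclei of the mediobasal hypothalamus, a brain area that controls food intake. The members were all gene symbols in the deposited matrix that begin with Cdh or Pcdh followed only by lower-case letters and digits, and 96 of the 31053 symbols met that rule. Wild-type mice that fed ad libitum on chow received insulin or saline, and each treatment gave 2 libraries. The labels give neither the dose, the route, the time after treatment nor the number of mice in a library, so a p-value here reflects no more than how these 4 libraries vary. The Insulin library of sequencing run 230 gave 66050156 UMIs from 8352 nuclei and that of run 232 gave 63590421 UMIs from 9796 nuclei. The Saline library of run 230 gave 69996918 UMIs from 9473 nuclei and that of run 232 gave 71391593 UMIs from 8902 nuclei. A UMI is a molecular barcode that marks 1 captured RNA molecule, and UMIs were summed over nuclei per library within each of the authors' 8 cell types and 37 neuron populations. Levels are in CPM, a gene's UMIs scaled to a fixed total of UMIs of the same nuclei and library, and errors after ± are standard deviations over the 4 libraries unless stated otherwise. CPM ranks the share of a type's RNA, not the RNA per nucleus, and in the sums over all nuclei fewer nuclei of a type and less RNA per nucleus cannot be told apart.

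Run and sex coincided. The female-specific Xist had levels of 4.88 (run 230) and 1713 CPM (run 232) with insulin and of 4.53 (run 230) and 1614 CPM (run 232) with saline. Uty, on the Y chromosome, ran the other way, at 175 (run 230) and 1.02 CPM (run 232) with insulin and 177 (run 230) and 1.40 CPM (run 232) with saline. Throughout, the values of a pair of Insulin or Saline libraries are given in the order run 230, run 232. Some type labels did not match their defining genes. Of the 3 endothelial markers, nuclei annotated Endothelial were nearly without Cldn5 (1.67 CPM) and Pecam1 (3.87 CPM) but held Flt1 at 279 CPM. Of the tanycyte and ependymal markers, Col23a1 (2423 CPM) and Rax (84.4 CPM) were high in them, and Foxj1 (14.1 CPM) and Ccdc153 (3.92 CPM) were low. Nuclei annotated Mural Cell held the endothelial markers Cldn5 (538 CPM), Pecam1 (195 CPM) and Flt1 (1621 CPM) besides the mural markers Pdgfrb (525 CPM) and Rgs5 (598 CPM). They also held the vascular leptomeningeal markers Dcn, Col1a1 and Slc6a13 at a summed 467 CPM. By library that sum was 199 and 643 CPM with insulin and 425 and 603 CPM with saline. The markers of oligodendrocyte precursor cells Pdgfra, Cspg4 and Vcan were at a summed 450 CPM in them. Both groups are therefore named here only by the authors' annotation.

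Cadherins are transmembrane proteins whose extracellular repeats bind calcium and join neighbouring cells. Classical type I and type II cadherins bind mostly to like molecules on the opposite cell and couple to actin through catenins, and in the brain combinations of them help to sort neurons and to match synaptic partners. Delta protocadherins are weaker adhesion molecules of neurons and glia that are known for roles in axon and dendrite growth. The clustered protocadherins, of which each neuron chooses a few, give neurite branches of 1 cell an identity that lets them avoid each other. Other members have specialised roles, such as Cdh23 and Pcdh15, which form the tip link of inner ear hair cells, and Cdh5, the adhesion molecule of vascular endothelium.

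The 96 members comprised 5 type I and 13 type II classical cadherins, the GPI-anchored Cdh13, 4 delta1 and 5 delta2 protocadherins, 9 other cadherins, 3 other protocadherins and 56 clustered protocadherins. UMIs were present for 40 members, and 56 were listed at 0 in every library. Those at 0 were Cdh15, a type I cadherin of muscle, and all 55 clustered protocadherins other than Pcdha1, which had 528 UMIs. In the GENCODE M21 annotation of GRCm38, no base of the span of any of these 56 genes was free of another gene on the same strand, whereas Pcdha1 had 9021 such bases at its upstream end. Of all 408 protein-coding genes with no free base, 407 (99.8%) had 0 UMIs, against 1975 of 20369 genes (9.70%) with no overlapping gene on the strand. Without the clustered protocadherins, 353 of 354 such genes had 0 UMIs. The authors' counting step and its annotation are not given in the sources used here. Whether the 55 clustered protocadherins at 0 were expressed was not detectable in this matrix.

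The 40 members with UMIs held 2882599 UMIs, 1.06% of all. Pcdh9 (ENSMUSG00000055421, GRCm38 chr14:93013410-93890679, minus strand), a delta1 protocadherin, alone held 928630 UMIs or 32.2% of them. Over all nuclei it stood at 3426 ± 315 CPM, followed by Pcdh15 at 1475 ± 163 CPM, Pcdh7 at 1241 ± 114 CPM and Cdh18 at 1136 ± 134 CPM. At the low end, 7 members had fewer than 100 UMIs. Nuclear libraries capture unspliced RNA, and across 39 members log10 UMIs and log10 gene span correlated across genes (Pearson's r = 0.80, Spearman's rho = 0.852, genes not being independent replicates). Per kilobase of span the order changed: Pcdh9 stood at 3.91 CPM per kilobase, Pcdh7 at 2.99 and Pcdh17 at 2.84, but Pcdh15 at only 0.951 and Cdh12, a type II cadherin with 258 ± 38.7 CPM, at 0.226.

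Promoter windows were available from RefSeq (GRCm38.p6, 250 bases before to 50 after an annotated start) for 27 of the 96 members, in 30 windows. They were searched on both strands for GTTGCC, a half-site of RFX factors, the regulators of cilia genes, which does not overlap the second motif searched. All windows in the table held it in 4111 of 32851 cases (12.5%). Among the members it was present in the windows of Cdhr3 and Cdhr4, which are shown because Cdhr3 was the member most restricted to a ciliated type in the results that follow. Capitals mark the match, which reads GGCAAC on the strand of each gene and starts at position -6 in Cdhr3 and at position 13 in Cdhr4, relative to the annotated start. The windows lie at chr12:33092826-33093125 (minus strand) for Cdhr3 and at chr9:107992207-107992506 (plus strand) for Cdhr4.
Cdhr3: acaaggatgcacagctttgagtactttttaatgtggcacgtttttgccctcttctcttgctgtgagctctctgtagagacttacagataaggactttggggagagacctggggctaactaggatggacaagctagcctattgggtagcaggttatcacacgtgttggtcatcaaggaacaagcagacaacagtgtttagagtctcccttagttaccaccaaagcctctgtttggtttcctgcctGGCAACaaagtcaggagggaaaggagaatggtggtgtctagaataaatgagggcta
Cdhr4: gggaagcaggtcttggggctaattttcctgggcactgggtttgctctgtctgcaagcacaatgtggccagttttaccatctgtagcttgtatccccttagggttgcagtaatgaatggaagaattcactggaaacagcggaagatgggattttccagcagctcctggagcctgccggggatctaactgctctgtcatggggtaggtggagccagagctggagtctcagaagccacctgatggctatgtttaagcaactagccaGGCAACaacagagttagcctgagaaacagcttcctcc
A match is a stretch of letters and does not show a site in use. Cdhr4 had 2 UMIs in the 8 cell types together, both in Ependymo nuclei. However, 2 other genes overlap it on its strand, and only 1341 of the 7188 bases of its span are free of them. Whether that overlap lowered its count was not tested. The second motif, GAGGAAG, which the myeloid factor PU.1 binds, was in 4477 windows (13.6%) and not in that of Cdh23.

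The first question was how the members differed between cell types. Each type was compared with the mean of the other types by edgeR's quasi-likelihood test, with the library as a block and Benjamini-Hochberg adjustment over all genes, and a difference is called where the adjusted p was under 0.05. The authors assigned types and populations from the same transcriptomes, so these p-values describe how far levels separate the annotated groups and are not an independent test of them. The low-count filter kept 29 members, which gave 232 tests in 8 types, 74 of them called higher and 78 called lower. That is 65.5% of the members' tests, against 46.4% of the tests of all genes (25.2% higher and 21.3% lower). Oligodendrocyte precursor cells (OPC) had 20 members called higher and 0 lower, where 39.8% of all genes were called in either direction, and 2 members called lower with scaling to library size. Neurons had 16 higher and 3 lower (69.4% of all genes called), and astrocytes 10 higher and 13 lower (53.8%). Oligodendrocytes had 6 higher and 15 lower (58.5%), Endothelial nuclei 5 and 15 (40.7%), Ependymo nuclei 4 and 13 (40.8%), Micro nuclei 9 and 9 (34.8%) and Mural Cell nuclei 4 and 10 (33.5%). OPC also carried neuronal RNA. The summed neuron markers (Rbfox3, Snap25, Syt1 and Stmn2) were at 451 and 1054 CPM in OPC of the Insulin libraries and at 622 and 1308 CPM in OPC of the Saline libraries. Their mean was 859 CPM in OPC, 3021 CPM in neurons, 304 CPM in oligodendrocytes and 237 CPM in astrocytes. The part of neuronal RNA in the OPC calls was not tested.

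**Figure D1:**
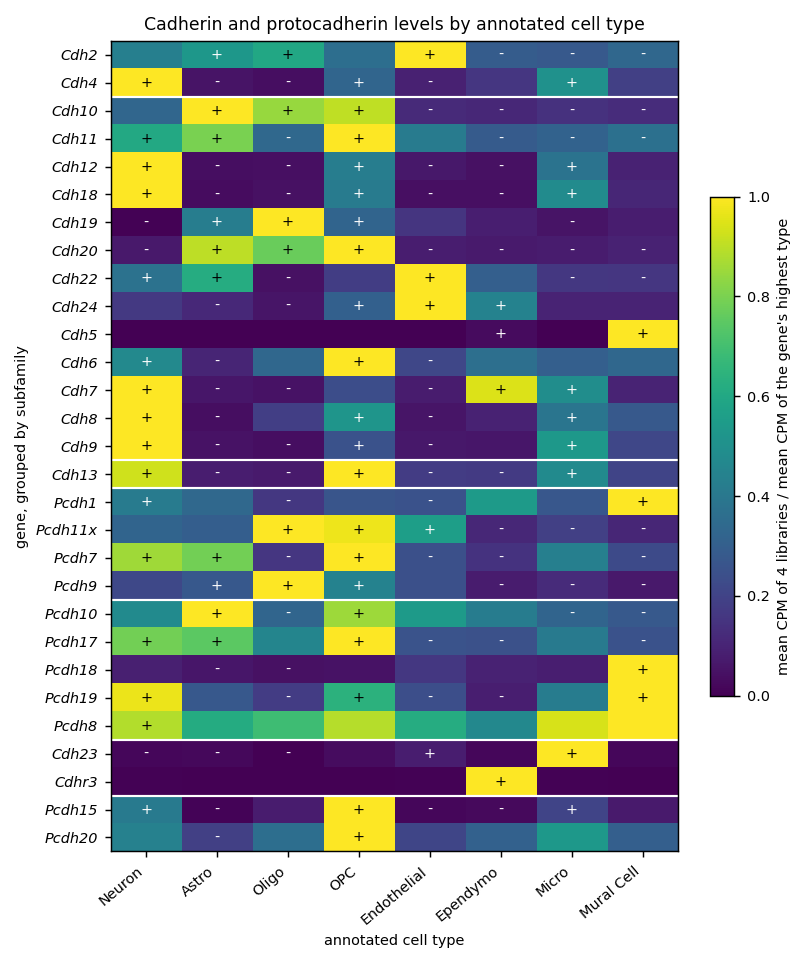
Mean level of each tested cadherin and protocadherin (rows, grouped by subfamily) in each annotated cell type (columns), as CPM over 4 libraries divided by the gene's mean CPM in its highest type; + and - mark types called higher and lower than the mean of the others by edgeR. OPC have 20 members called higher and 0 called lower, and the members nearly confined to 1 type in the plot are Cdhr3 in Ependymo, Cdh5 in Mural Cell and Cdh23 in Micro nuclei.

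Type II cadherins had their highest levels in different types, some in neurons and others in glia, Endothelial or Mural Cell nuclei. In neurons 8 of the 13 were called higher and 2 lower, in OPC 10 higher and 0 lower, in astrocytes 5 higher and 7 lower and in oligodendrocytes 3 higher and 7 lower. The share of all genes called in either direction was 69.4% in neurons, 39.8% in OPC, 53.8% in astrocytes and 58.5% in oligodendrocytes. Cdh18 (chr15:22549022-23474418, plus strand) stood at 1461 and 1191 CPM in neurons of the Insulin libraries and at 1401 and 1219 CPM in neurons of the Saline libraries. Cdh12 (chr15:20449265-21589533, plus strand), its neighbour on chromosome 15, had 328 and 270.1 CPM in neurons of the Insulin libraries and 339 and 262 CPM in neurons of the Saline libraries. The log2 difference of neurons from the other types was 3.52 for both (SE 0.18 for Cdh18 and 0.14 for Cdh12). Cdh9, which specifies synapses in the mouse hippocampus and retina, was at 72.6 ± 4.22 CPM in neurons (log2 difference 3.26, SE 0.12). All 3 were also higher in neurons than in the type of second highest level (log2 differences 1.18 for Cdh12, 1.25 for Cdh18 and 0.97 for Cdh9, adjusted p 7.73e-06, 0.000951 and 0.000355 in edgeR).

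Cdh19, Cdh20 and Cdh10 were called higher in several glial types. Cdh20 (chr1:104768529-104995481, plus strand) reached 800.0 ± 259 CPM in OPC, 721 ± 88.6 CPM in astrocytes and 618 ± 88.6 CPM in oligodendrocytes, against 55.0 ± 8.82 CPM in neurons, and these 3 glial types did not differ beyond their spread (log2 difference of OPC from astrocytes 0.14, edgeR adjusted p = 0.685). In OPC it was at 992 and 635 CPM in the Insulin libraries and at 1049 and 525 CPM in the Saline libraries, higher in run 230 in both groups. Cdh19 (chr1:110888326-110977584, minus strand), a cadherin known from Schwann cells and other neural crest derivatives, stood at 835 and 755 CPM in oligodendrocytes of the Insulin libraries and at 687 and 683 CPM in oligodendrocytes of the Saline libraries. Astrocytes followed at 314 ± 56.9 CPM, below oligodendrocytes (log2 difference of oligodendrocytes from astrocytes 1.29, edgeR adjusted p = 0.000752), and neurons were lowest at 4.67 ± 4.01 CPM. That neuronal level went with the run: 1.12 and 8.05 CPM in the Insulin libraries and 1.28 and 8.23 CPM in the Saline libraries. Cdh7 (chr1:109982431-110140157, plus strand), which lies between Cdh20 and Cdh19, was instead at 77.6 ± 5.90 CPM in neurons and 73.6 ± 23.4 CPM in Ependymo nuclei and at 4.59 ± 1.35 CPM in astrocytes. Cdh10 was called higher in astrocytes (639 ± 56.4 CPM), OPC (578 ± 76.1 CPM) and oligodendrocytes (539.5 ± 19.8 CPM), though it lies on chromosome 15 with Cdh9, Cdh12 and Cdh18, which were highest in neurons.

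**Figure D2:**
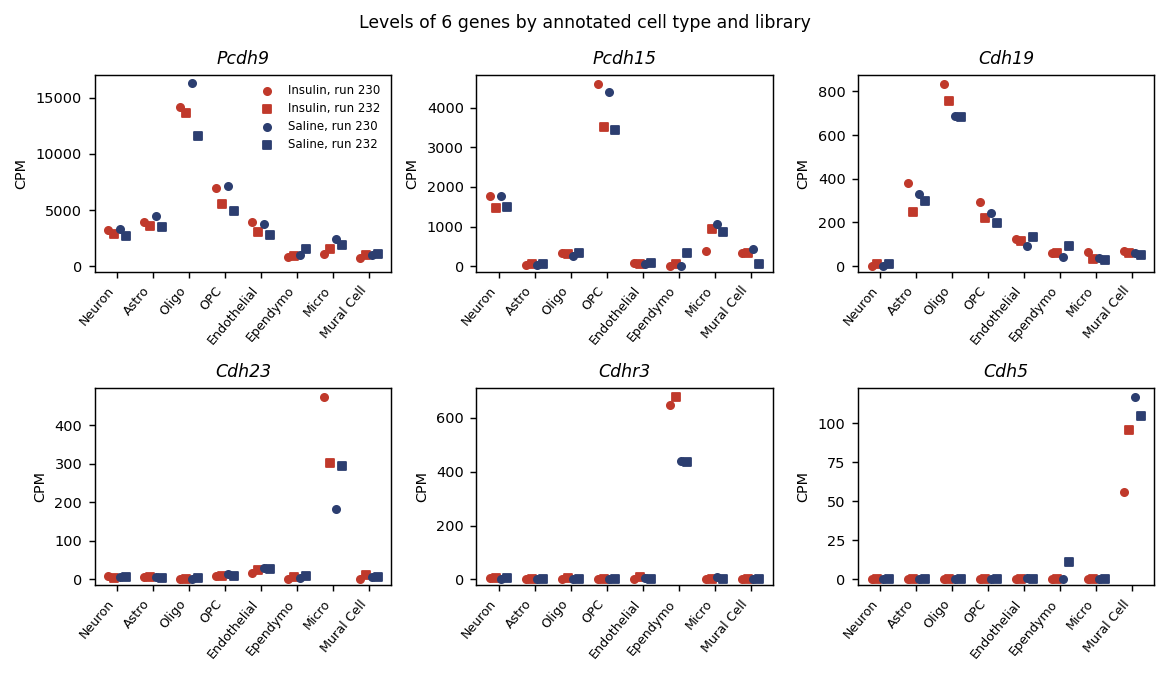
Levels in CPM (linear axes, a scale for each gene) of 6 genes by annotated cell type, with 1 point per library, Insulin libraries in red left of Saline libraries in blue. Pcdh15 is highest in OPC at 3996 ± 602 CPM, Cdh19 in oligodendrocytes at 740.1 ± 71.7 CPM, Cdh23 in Micro nuclei at 314 ± 120.2 CPM, Cdhr3 in Ependymo nuclei at 550 ± 131 CPM and Cdh5 in Mural Cell nuclei at 93.4 ± 26.4 CPM.

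Of the 4 delta1 protocadherins, 2 were highest by their mean in oligodendrocytes, Pcdh9 and Pcdh11x. Pcdh9 stood at 14203 and 13675 CPM in oligodendrocytes of the Insulin libraries and at 16309 and 11614 CPM in oligodendrocytes of the Saline libraries, so that a single gene gave over 1% of the RNA of these nuclei. OPC followed at 6158 ± 1097 CPM, and the 2 types differed (log2 difference of oligodendrocytes from OPC 1.23, edgeR adjusted p = 2.22e-05). Pcdh11x, the X-linked delta1 member, was at 1069 ± 341 CPM in oligodendrocytes and at 1040.1 ± 175 CPM in OPC. Pcdh7 and Pcdh1 were not. Pcdh7 was at 1526 ± 145 CPM in OPC, 1311 ± 124 CPM in neurons and 1203 ± 133 CPM in astrocytes, and at 239 ± 39.0 CPM in oligodendrocytes. Pcdh1 was highest in Mural Cell nuclei at 42.0 ± 10.3 CPM and lowest in oligodendrocytes at 6.82 ± 1.58 CPM. Members together made up 1.84 ± 0.229% of the UMIs of oligodendrocytes and 1.72 ± 0.229% of those of OPC, against 1.06 ± 0.0709% in neurons and 0.317 ± 0.0433% in Mural Cell nuclei.

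Pcdh15 (ENSMUSG00000052613, chr10:73099342-74649737, plus strand) was the member that set OPC apart. It stood at 4612 and 3513 CPM in OPC of the Insulin libraries and at 4411 and 3447 CPM in OPC of the Saline libraries, with every OPC library above every library of the other types. The log2 difference from the other types was 4.28 (SE 0.25, edgeR adjusted p = 1.83e-16), and from neurons, the second at 1629.6 ± 162 CPM, 1.39 (edgeR adjusted p = 0.00685). Oligodendrocytes, the descendants of OPC, were at 309 ± 31.5 CPM and astrocytes at 39.6 ± 8.73 CPM. Of 7 tested partners of the hair cell tip link, 1 was called higher and 2 lower in OPC, a share near the 39.8% of all genes called there. Cdh23 (ENSMUSG00000012819, chr10:60302748-60696490, minus strand), with which Pcdh15 joins at the tip link of hair cells, was at 10.3 ± 2.99 CPM there.

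Cdh23 was highest in Micro nuclei, at 474 and 303 CPM in the Insulin libraries and at 183 and 295 CPM in the Saline libraries. Every Micro library was above every library of the other types, the next being Endothelial nuclei at 24.8 ± 5.81 CPM (log2 difference of Micro from Endothelial nuclei 3.62, past the threshold in edgeR). Micro nuclei carried neuronal RNA as well. The summed level of the 4 neuron markers was 525 and 1559 CPM in the Insulin libraries and 1797 and 1796 CPM in the Saline libraries of these nuclei, and that of the 4 microglia markers was 4316 and 2420.4 CPM and 1690 and 2125 CPM in the same order of groups. The other 8 members called higher in Micro nuclei (Cdh18, Cdh9, Cdh12, Cdh4, Pcdh15, Cdh7, Cdh8 and Cdh13) were all called higher in neurons too. Their level in Micro nuclei was 0.379 to 0.534 times that in neurons, and for the neuron markers Rbfox3, Snap25, Syt1 and Stmn2 the ratio was 0.494, 0.508, 0.431 and 0.702, whereas for Cdh23 it was 52.0. The part of neuronal RNA in those 8 calls was not tested.

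Cdhr3 (ENSMUSG00000035860, chr12:33033796-33092875, minus strand), known in human airways from multiciliated cells, had its highest level in Ependymo nuclei. It stood at 648 and 677 CPM in Ependymo nuclei of the Insulin libraries and at 438 and 434 CPM in Ependymo nuclei of the Saline libraries, with neurons second at 4.14 ± 0.777 CPM. The log2 difference of Ependymo nuclei from neurons was 6.84, and that from the mean of all other types was 8.93 (SE 0.22, edgeR adjusted p = 5.09e-26), a value that depends on the prior count because Mural Cell nuclei were at 0. The ependymal markers Foxj1 (82.8 CPM) and Ccdc153 (305 CPM) were high in the same nuclei. Of 13 other genes of the cadherin superfamily that do not carry a Cdh or Pcdh symbol, 8 were called higher and 1 lower in Ependymo nuclei. Of all genes, 40.8% were called there in either direction. Among them Dsg2, a desmosomal cadherin, was at 96.5 ± 21.1 CPM and Dchs2, a dachsous cadherin, at 299 ± 95.7 CPM. Oligodendrocytes had 1 of these 13 called higher and 8 lower, where 58.5% of all genes were called in either direction. The Ependymo value rests on few nuclei, 16 and 155 in the Insulin libraries and 54 and 49 in the Saline libraries.

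In Mural Cell nuclei, Cdh5 (ENSMUSG00000031871, chr8:104101625-104144511, plus strand) was at 56.0 and 95.7 CPM in the Insulin libraries and at 117 and 105 CPM in the Saline libraries, from 91 UMIs in all. The type of second highest level was Ependymo, at 2.82 ± 5.64 CPM, and the Endothelial nuclei were at 0.319 CPM from 2 UMIs. Pcdh12, a protocadherin of endothelium, was too low for the test and had 5 of its UMIs in Mural Cell nuclei (5.38 ± 1.41 CPM). Pcdh18, a delta2 protocadherin, had 28.9 ± 18.4 CPM from 25 UMIs (log2 difference 3.26, SE 0.41). Jup, the catenin that links endothelial cadherin and desmosomes, was called higher there as well, at 62.4 ± 5.27 CPM. Endothelial nuclei, by contrast, were led by Cdh24 at 42.6 ± 10.6 CPM and Cdh22 at 194 ± 14.6 CPM, both type II cadherins (log2 differences 2.61 and 2.17), and had the highest level of Cdh2, the type I N-cadherin of neural tissue, at 661 ± 38.2 CPM.

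Partner genes were counted in the same tests. Of 11 tested catenins, 6 were called higher and 4 lower in neurons (69.4% of all genes called in either direction), and 5 higher and 4 lower in oligodendrocytes (58.5%). Ctnna3, the alpha-T-catenin, was at 1644 ± 196 CPM in oligodendrocytes (log2 difference 2.48). Of 4 tested nectin and afadin genes, 4 were called higher in neurons and 3 in OPC (39.8% of all genes called), with 0 called lower in either. Of 12 regulators of the clustered protocadherins, 2 were called higher and 7 lower in neurons, together a share near the 69.4% of all genes, with Dnmt3b, a DNA methyltransferase, at 0.927 ± 0.114 CPM.

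Among neurons, 35 populations had at least 10 nuclei in every library, and the same test set each against the average of the rest. Of 980 tests of 28 members, 332 were called higher and 222 lower. That is 56.5%, against 21.2% of the tests of all genes (13.0% higher and 8.16% lower), again without a comparison at equal counts. M12.Npffr1 had 20 of 28 members called higher and 0 lower (21.6% of all genes called in either direction) and M21.Nfix 15 higher and 0 lower (20.3%). With scaling to library size M12.Npffr1 had 20 higher and 1 lower and M21.Nfix 15 higher and 0 lower. The Agrp neurons of M26.Agrp, which drive feeding, had 5 higher and 18 lower (37.9% of all genes called in either direction). The magnocellular peptide population M24.Avp/Oxt had 4 higher and 14 lower (21.5% of all genes called).

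**Figure D3:**
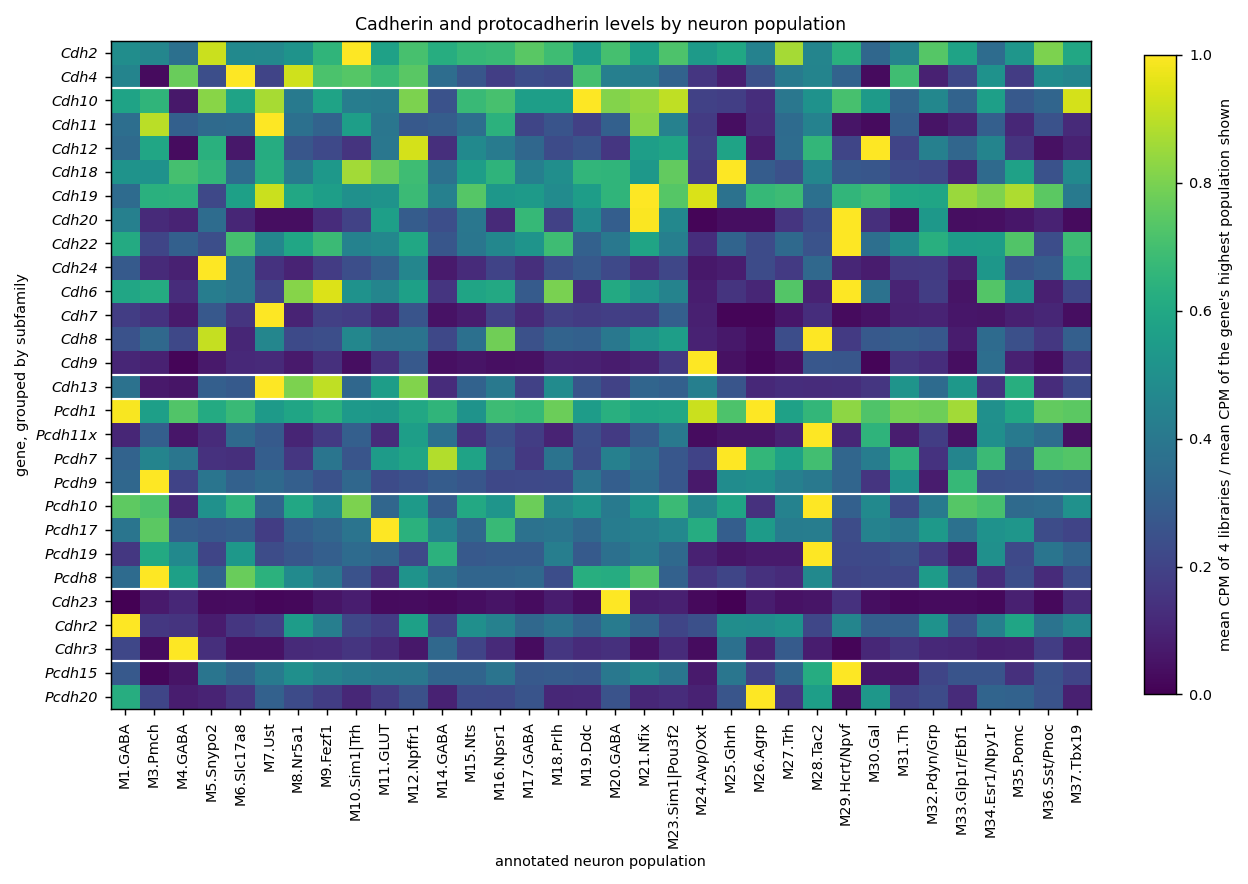
Mean level of each tested member (rows, grouped by subfamily) in each of 34 neuron populations (columns), as CPM over 4 libraries divided by the gene's highest mean CPM among them. Cdh9 in M24.Avp/Oxt, Cdh7 in M7.Ust, Cdh23 in M20.GABA and Cdhr3 in M4.GABA each stand out from low levels elsewhere, with log2 differences from the mean of the others of 3.62, 3.42, 4.64 and 3.52, while Pcdh1 is above a low level in most populations.

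Several members had their highest level in 1 population and passed the test against the other population of highest level. Cdh9 (chr15:16728756-16857094, plus strand) stood at 588 and 565 CPM in M24.Avp/Oxt neurons of the Insulin libraries and at 843 and 478 CPM in those of the Saline libraries. M34.Esr1/Npy1r came second at 223 ± 25.3 CPM, below M24.Avp/Oxt (log2 difference of M24.Avp/Oxt from M34.Esr1/Npy1r 1.56, past the threshold in edgeR). Cdh7 stood at 460.4 and 424 CPM in M7.Ust of the Insulin libraries and at 481 and 459 CPM in M7.Ust of the Saline libraries, with M23.Sim1|Pou3f2 second at 138 ± 14.3 CPM. That difference passed the same test (log2 1.81). Cdh23 was at 55.8 and 51.4 CPM in M20.GABA of the Insulin libraries and at 47.5 and 53.9 CPM in M20.GABA of the Saline libraries (log2 difference from the mean of the others 4.64). Cdhr3, the ependymal member, was at 30.8 and 22.5 CPM in M4.GABA of the Insulin libraries and at 35.0 and 41.1 CPM in M4.GABA of the Saline libraries, against 11.9 ± 3.51 CPM in the second, M25.Ghrh. Pcdh15 was at 4518 ± 655 CPM in M29.Hcrt/Npvf, the orexin and RFamide population, and at 2803 ± 346 CPM in M28.Tac2 (log2 difference of M29.Hcrt/Npvf from M28.Tac2 0.74, edgeR adjusted p = 0.000425), while M3.Pmch was at 74.9 ± 52.8 CPM. For Cdh9, Cdh7, Cdhr3 and Pcdh15 no library of the first population overlapped the second. Other members passed against the other population of highest level as well. They included Cdh24 in M5.Snypo2 (log2 difference 0.97), Pcdh9 in M3.Pmch (0.80) and Cdh22 in M29.Hcrt/Npvf (0.52). Pcdh19 in M28.Tac2 (0.51) and Pcdh17 in M11.GLUT (0.37) passed too.

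Other members instead had a graded order without a distinct leader. Cdh4, the type I R-cadherin, was at 778 ± 86.2 CPM in M6.Slc17a8 and 722 ± 45.4 CPM in M8.Nr5a1, which did not differ beyond their spread (log2 difference 0.0055, edgeR adjusted p = 0.988). Cdh13 was at 1388 ± 70.6 CPM in M7.Ust and 1254 ± 119 CPM in M9.Fezf1, Cdh12 at 862 ± 161 CPM in M30.Gal and 805 ± 77.6 CPM in M12.Npffr1, and Cdh8 at 674 ± 156 CPM in M28.Tac2 and 615 ± 102.3 CPM in M5.Snypo2, without passing the test against each other. Cdh18 was at 2440.0 ± 98.1 CPM in M25.Ghrh and 2104 ± 212 CPM in M10.Sim1|Trh, whose libraries did not overlap but which did not pass the test (log2 difference 0.11, edgeR adjusted p = 0.654). Cdh20 peaked alike in M29.Hcrt/Npvf (190.2 ± 52.0 CPM) and M21.Nfix (189 ± 48.0 CPM), and was at 2.39 ± 2.82 CPM in M24.Avp/Oxt. Cdh2 varied least among the classical cadherins described here, between 149.8 ± 19.4 CPM in M30.Gal and 449 ± 39.2 CPM in M10.Sim1|Trh.

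Protocadherins also differed between populations. Pcdh11x and Pcdh19, both X-linked, were highest in M28.Tac2, the population with tachykinin 2. Pcdh11x stood there at 2052 and 1090.4 CPM in the Insulin libraries and at 1778 and 895 CPM in the Saline libraries, higher in run 230 of both groups, and its lowest library lay within the range of the second population, M30.Gal at 945 ± 108 CPM (log2 difference 0.68, edgeR adjusted p = 0.00238). Pcdh19 was at 375 and 186 CPM in M28.Tac2 of the Insulin libraries and at 316 and 222 CPM in M28.Tac2 of the Saline libraries, higher in run 230 as well. Pcdh9 was at 9727 ± 2193 CPM in M3.Pmch, the population of melanin-concentrating hormone, and at 647 ± 119 CPM in M24.Avp/Oxt. Pcdh17, a delta2 protocadherin, was at 655 ± 103 CPM in M11.GLUT and at 119.9 ± 10.1 CPM in M7.Ust, and Pcdh7 at 3306 ± 246 CPM in M25.Ghrh and 445 ± 38.9 CPM in M6.Slc17a8.

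M26.Agrp neurons had low levels of most type II cadherins, while their protocadherins ranged from high to low among the populations. Cdh8 was at 21.1 ± 5.88 CPM, the lowest of the 35 populations, where the median population had 199 CPM. Cdh12 (65.3 ± 14.8 CPM), Cdh10 (44.9 ± 5.71 CPM) and Cdh9 (10.8 ± 8.82 CPM) were called lower as well. The 5 members called higher were protocadherins: Pcdh20, at 26.8 ± 1.57 CPM the highest of all populations by its mean, Pcdh1, Pcdh7, Pcdh9 and Pcdh17. Pcdh8, Pcdh10, Pcdh11x, Pcdh15 and Pcdh19 were tested and not called higher. Pcdh11x, at 74.7 ± 12.2 CPM, had rank 31 among the 35 populations. Pcdh20 stood at 28.6 and 26.3 CPM in M26.Agrp of the Insulin libraries and at 24.9 and 27.3 CPM in M26.Agrp of the Saline libraries (log2 difference 2.44, SE 0.18). Against M1.GABA, the second at 16.7 ± 14.8 CPM, it did not pass the test (log2 difference 1.12, edgeR adjusted p = 0.287).

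Pairs of members were also compared across the 35 populations. Over 378 pairs of 28 members, Pearson's r of log2 mean levels ran between -0.60 (Cdh8 and Pcdh1) and 0.69 (Cdh7 and Cdh11), with a median of 0.08. Cdh7 and Cdh8 had r = 0.67, Cdh8 and Cdh10 r = 0.63, and the X-linked Pcdh11x and Pcdh19 r = 0.63. The 30 pairs on 1 chromosome had a median r of 0.13 and the other pairs a median of 0.07. These values describe 35 populations that share the same 4 libraries.

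The second question was whether insulin changed the members. Over all nuclei, edgeR's quasi-likelihood test called 0 of 37 members, with 0 at an unadjusted p under 0.05, and DESeq2 and limma-voom called 0 as well. Of all 21190 genes tested, 0 (0.00%) were called and 88 had an unadjusted p under 0.05. This fit, like those within types and populations below, had no term for the run, with which sex coincided. Run differences thus entered the spread within each treatment, and 0 calls do not show that insulin had no effect. With the run as a block 0 members were called as well. The median log2 difference of Insulin from Saline was -0.0011 for the members and 0.0083 for all genes. Cdh4 was at 334 and 287 CPM in the Insulin libraries and at 338 and 371 CPM in the Saline libraries, the groups not overlapping (log2 difference -0.20, SE 0.13). In all, 0 members were higher in both Insulin libraries than in both Saline libraries (8.44% of all genes), and 6 were lower (10.2% of all genes): Cdh4, Cdh13, Cdh17, Cdhr2, Pcdh10 and Pcdh19. Cdhr3 was at 4.47 and 12.5 CPM in the Insulin libraries and at 4.16 and 5.91 CPM in the Saline libraries, beside 16 and 155 Ependymo nuclei in the Insulin libraries and 54 and 49 in the Saline libraries.

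Within cell types, edgeR called 0 of 187 tests of members and 0 of 88452 tests of all genes (0.00%). At an unadjusted p under 0.05 there were 5 member tests, and DESeq2 and limma-voom called 0. The 5 were Cdh18 and Cdh20 in Endothelial nuclei, Cdh6 in Micro nuclei, Pcdh15 in Ependymo nuclei and Pcdh19 in Mural Cell nuclei. Such unadjusted counts, here and in the tests that follow, are not set against those of all genes. They are therefore not read as results. Neither did any change in 1 type differ from the mean change of the others (0 of 232 member tests called by edgeR and by DESeq2, 12 at an unadjusted p under 0.05, and 0.00171% of the tests of all genes called by edgeR).

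**Figure D4:**
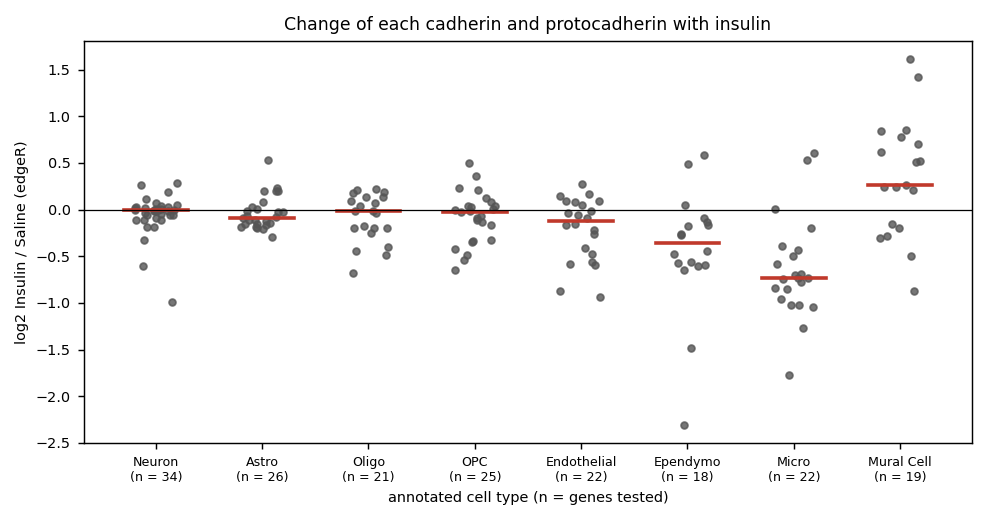
Log2 difference of Insulin from Saline by edgeR for each tested member (points, spread sideways for legibility) in each annotated cell type, with the median as a red bar. Medians lie near 0 in neurons (-0.0085), OPC (-0.025) and oligodendrocytes (-0.016), and at -0.73 in Micro and 0.27 in Mural Cell nuclei, with 0 members called.

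Micro nuclei had the lowest member median, -0.73 against 0.02 for all genes tested there, and 9 of 22 members were lower in both Insulin than in both Saline libraries (14.9% of all genes). The summed neuron markers of these nuclei were at 525 and 1559 CPM in the Insulin libraries and at 1797 and 1796 CPM in the Saline libraries, so they were also lower in both Insulin libraries, and their part in the members' values was not tested. Cdh23, in contrast, was higher in both Insulin libraries (474 and 303 CPM against 183 and 295 CPM, log2 difference 0.61, SE 0.39, edgeR adjusted p = 0.896). The summed microglia markers were higher in both Insulin libraries too (4316 and 2420.4 CPM against 1690 and 2125 CPM), and their part in the Cdh23 values was not tested. In Ependymo nuclei Pcdh15 was at 11.6 and 45.5 CPM in the Insulin libraries and at 14.6 and 341 CPM in the Saline libraries. The Saline library of run 232 stood far above the rest, and without it Pcdh15 did not reach the low-count filter. The summed neuron markers of Ependymo nuclei were highest in that library as well, at 208 and 223 CPM in the Insulin libraries and at 141 and 703 CPM in the Saline libraries, and their part in the Pcdh15 values was not tested. The log2 difference of -2.31 (SE 0.85) did not pass (edgeR adjusted p = 1.00), but passed without any 1 of the other 3 libraries (edgeR adjusted p 1.02e-08 to 0.0295) and with the run as a replicate block (log2 difference -2.79, edgeR adjusted p = 0.0256). With DESeq2 and the same block it did not pass (log2 difference -2.42, adjusted p = 1.00), nor did it in limma-voom (log2 difference -1.14, adjusted p = 0.830). In Mural Cell nuclei Pcdh19, the X-linked delta2 protocadherin, was at 162 and 106 CPM in the Insulin libraries and at 42.5 and 52.4 CPM in the Saline libraries (log2 difference 1.42, SE 0.39, edgeR adjusted p = 1.00, 81 UMIs). The summed neuron markers of Mural Cell nuclei were higher in both Insulin libraries as well, at 914 and 677 CPM against 404 and 567 CPM in the Saline libraries, and their part in the Pcdh19 values was not tested.

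Within neuron populations, 1 of 782 member tests passed (0.128%, against 0.000835% of the tests of all genes), and 42 had an unadjusted p under 0.05. The share of all genes at that unadjusted p is not given here, so the 42 are not read as a result. The 1 was Cdh6, the type II K-cadherin (ENSMUSG00000039385, chr15:13028701-13173675, minus strand), in M27.Trh, a population named for thyrotropin-releasing hormone. Cdh6 rose to 232 and 166 CPM in M27.Trh of the Insulin libraries, against 26.3 and 21.1 CPM in M27.Trh of the Saline libraries (log2 difference 3.12, SE 0.38, edgeR adjusted p = 0.0243). In that population 3 of 6958 genes (0.0431%) were called. The other 2 were Neto1, an auxiliary subunit of glutamate receptors, at 205 and 147 CPM in the Insulin libraries and 18.8 and 18.1 CPM in the Saline libraries, and Btg2, an immediate early gene, at 204 and 313 CPM in the Insulin libraries and 41.3 and 24.1 CPM in the Saline libraries.

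The Cdh6 counts in M27.Trh were 149 and 72 UMIs in the Insulin libraries and 7 and 7 UMIs in the Saline libraries. Without the nucleus that held most of its UMIs, each library stood at 198 and 131 CPM in the Insulin libraries and at 11.7 and 12.4 CPM in the Saline libraries. The population itself was of unequal size, with 75 and 58 nuclei in the Insulin libraries and 31 and 34 in the Saline libraries, or 1.38 and 0.947% of neurons against 0.487 and 0.638%. Trh was at 275 and 580 CPM in the Insulin libraries and at 436 and 431 CPM in the Saline libraries, and Sim1, a transcription factor of paraventricular-type neurons, at 334 and 159 CPM against 259 and 229 CPM. Whether M27.Trh held the same kinds of nuclei in both groups was not tested. The call was made by DESeq2 (adjusted p = 0.000847), but not with the run as a replicate block (log2 difference 3.08, edgeR adjusted p = 0.186), with DESeq2 and the block (adjusted p = 0.0556) or in limma-voom (log2 difference 3.06, adjusted p = 0.868). On leaving out any 1 library the log2 difference was 2.84 to 3.35. Fits without 1 library leave a lone library in a group, so only this size is given for them. Those fits and the fits with the block have 1 residual degree of freedom each.

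**Figure D5:**
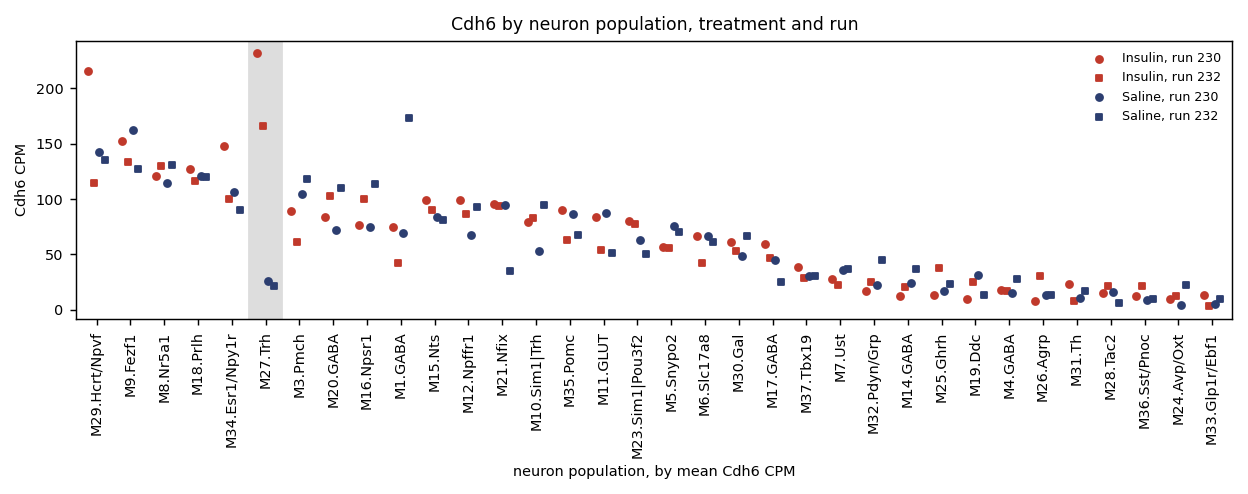
Cdh6 level in CPM (linear axis) by neuron population, ordered by mean level, with 1 point per library and the Insulin points in red left of the Saline points in blue. In M27.Trh, shaded, the Insulin libraries stand at 232 and 166 CPM and the Saline libraries at 26.3 and 21.1 CPM.

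In the other 30 populations in which Cdh6 was tested, its log2 difference of Insulin from Saline lay between -0.86 in M14.GABA and 0.84 in M36.Sst/Pnoc. The change in M27.Trh differed from the mean change of the other 34 populations (difference of the log2 changes 3.18, SE 0.55, edgeR adjusted p = 0.000143), in a test added after these values were seen. The test used the same 4 libraries, and populations of 1 library are not independent replicates of a treatment. It is therefore not separate support for the Cdh6 call within M27.Trh. That test called 3 of 28 members, against 0.837% of 13858 genes, the other 2 being Cdh4 (0.83, SE 0.22, adjusted p = 0.0398) and Pcdh15 (1.03, SE 0.28, adjusted p = 0.0472). For Cdh19, Cdh20, Cdh23, Cdhr2, Cdhr3 and Pcdh20 the SE was 8.85 or larger, so the test could not decide for them. Without the Insulin library of run 230, or without the Saline library of run 230, Cdh6 alone was called (2.97 and 3.32). On leaving out 1 library Cdh4 was called only without the Insulin library of run 232 (1.07) and Pcdh15 only without the Saline library of run 232 (2.45). Within M27.Trh itself no other member passed. Cdh4 was at 494 and 285 CPM in the Insulin libraries and at 252 and 256 CPM in the Saline libraries. Cdh20 was at 60.6 and 32.2 CPM in the Insulin libraries and at 7.51 and 18.1 CPM in the Saline libraries, and Pcdh15 at 2498 and 1454 CPM in the Insulin libraries and 394 and 1462 CPM in the Saline libraries.

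In the feeding populations no member was called. In M26.Agrp, Cdh11, a type II cadherin known from mesenchyme and bone, was at 43.6 and 50.6 CPM in the Insulin libraries and at 26.6 and 20.7 CPM in the Saline libraries (log2 difference 0.94, SE 0.28, edgeR adjusted p = 1.00). In M35.Pomc, the counterpart that restrains feeding, it was at 24.4 and 23.3 CPM in the Insulin libraries and at 46.1 and 37.5 CPM in the Saline libraries (log2 difference -0.81, SE 0.32, edgeR adjusted p = 1.00). The groups did not overlap in either population and lay in opposite directions. Such separation was common there. In M26.Agrp 5 of 22 members were higher in both Insulin libraries and 5 lower, and in M35.Pomc 1 of 21 was higher and 5 lower. The share of all genes so separated is not given here, and Cdh11 was named for its small p. The difference of the 2 changes did not pass either (log2 1.79, SE 0.36, edgeR adjusted p = 0.228, with 0 of 22 members and 0.00% of 10616 genes called). At an unadjusted p under 0.05 there were 4 members, a count not set against all genes. Pcdh11x in M26.Agrp was at 60.9 and 70.4 CPM in the Insulin libraries and at 89.9 and 77.5 CPM in the Saline libraries. Pcdh10 in M35.Pomc was at 69.3 and 76.7 CPM in the Insulin libraries and at 60.8 and 48.5 CPM in the Saline libraries. In the 6 lists of partner genes (catenins, nectins, cadherin cleavage enzymes, other cadherin superfamily genes, regulators of the clustered protocadherins and hair cell tip link partners), edgeR called 0 genes for insulin over all nuclei.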

How the data were processed

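Nuclei of the mediobasal hypothalamus were sorted and sequenced in 10x 3' libraries, per the labels' protocols. The authors deposited a matrix of raw UMI counts of 41156 barcodes and 31053 gene symbols with a table of cell types and neuron populations. The submitters' processing notes name Cell Ranger and GRCm38; the version, the gene annotation and the use of intronic reads are not given in the sources used here. The deposited table gives each nucleus a library, a treatment and a run, which cannot be tied to the replicate numbers in the sample titles.

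Counts were summed per library over 36523 annotated nuclei. Left out were 4633 barcodes without annotation, 11 annotated nuclei absent from the matrix and, for the types, 423 nuclei that the authors called doublets and 1116 unassigned nuclei; no doublet caller was run. Between libraries, 318 barcode sequences were shared. Groups with at least 10 nuclei in every library were tested in R 4.3.3 with edgeR 4.0.16 (TMM scaling, minimum count 10 and minimum total 15 in the low-count filter, Benjamini-Hochberg adjustment over all genes). CPM values divide counts by the sum of the same nuclei. DESeq2 1.42.0 and limma 3.58.1 (voom) were alternatives, with library-size scaling, no filter, at least 50 nuclei per library, each library left out and a block for the run. Runs moved both treatments together: the differences of run 232 from run 230 in Insulin and in Saline libraries correlated at r = 0.699 over 19059 genes and 0.620 over 33 members. The fits were tested on simulated data.

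The members and the gene lists were chosen with earlier results of these data known. Genes were named by size of difference: up to 3 higher and 1 lower member per type, the top member per population, the top population per member, and the members of smallest p per insulin test; any further gene was picked with its values in view. The difference tests between neuron populations were added after the data were seen. Values of 1 of the 35 neuron populations tested are not reported here. Gene positions are from GENCODE M21 (GRCm38).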

Additional observations from a re-analysis of the deposited data

Results flagged for a closer look

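Of 84 named levels tested for a library far from the other 3, 1 had such a library, and chance gives such a flag in about 1 of 20 groups. Cdh20 in Micro nuclei was at 128 CPM in the Saline library of run 230, against 32.0 to 40.4 CPM in the other 3 libraries.

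Cdh1, the E-cadherin of epithelia, was concentrated in the nuclei that the authors left unassigned and that entered no comparison. In run 230 its level among unassigned nuclei was 371 CPM with insulin and 306 CPM with saline, and both libraries of run 232 were at 0. Those values rest on 118 UMIs in 193 unassigned Insulin nuclei and 97 UMIs in 182 unassigned Saline nuclei. The 8 cell types together held 33 Cdh1 UMIs. Cga, a pars tuberalis marker, was at 0 and 236 CPM in the unassigned nuclei of the Insulin libraries (run 230, run 232) and at 34.7 and 0 CPM in those of the Saline libraries, the 34.7 CPM resting on 11 UMIs. Tshb, another, had 0 and 4 UMIs in the unassigned nuclei of the Insulin libraries and 0 in those of both Saline libraries.

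In M27.Trh neurons 3 members had an insulin change that differed from the mean change of the other neuron populations. That test was added after the values were seen and used the same 4 libraries. The difference was 3.18 on the log2 scale for Cdh6, 0.83 for Cdh4 and 1.03 for Pcdh15. On leaving out any 1 library Cdh6 was called each time (2.93 to 3.40), Cdh4 only without the Insulin library of run 232 (1.07) and Pcdh15 only without the Saline library of run 232 (2.45). Within M27.Trh alone Cdh6 passed, and Cdh4 and Pcdh15 did not.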

How the results depend on the processing

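Member calls by cell type were 152 and ran from 141 to 169 over the alternatives, and those by neuron population were 554 and ran from 436 to 610. Library-size scaling shifted the median of all genes by -0.15 in astrocytes, 0.15 in Endothelial, 0.11 in Micro, 0.27 in Mural Cell nuclei, -0.16 in OPC and -0.21 in oligodendrocytes (log2). Insulin over all nuclei gave 0 member calls in every alternative run.

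Member calls for insulin by cell type were 0, and were 1 without the low-count filter and 1 with the replicate block (run), both Pcdh15 in Ependymo nuclei. Leaving out 1 library gave 1 to 11 calls. The 11, without the Insulin library of run 232, were 9 lower members in Micro and 2 in Ependymo nuclei. Calls by neuron population were 1, and became 3 without the filter, 3 with the replicate block, 0 with DESeq2 and the replicate block, 0 with limma-voom, 0 with at least 50 nuclei per library (25 populations, without M27.Trh) and 2 to 10 on leaving out 1 library. The 3 under the block were Cdh18 in M17.GABA, Cdh13 in M30.Gal and Pcdh11x in M33.Glp1r/Ebf1. Differences of 1 cell type's insulin change from the others gave 0 calls, 3 without the filter and 0 to 4 on leaving out 1 library. The difference of the insulin change in M27.Trh from the other populations, added after the data were seen, gave 3 calls, and 1 to 4 on leaving out 1 library. The cause of these changes was not tested. Within a type or population, a fit without 1 library has 1 residual degree of freedom, and so has a fit with the run as a block. Without 1 library, the lone library is assumed to vary like the other group.

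Set against the other type of highest level instead of the mean of the others, these named members took a negative value: Cdh20 (-0.14) and Cdh19 (-1.29) in astrocytes, Cdh23 in Endothelial (-3.62), Cdh7 (-0.055) and Cdh24 (-1.39) in Ependymo, Cdh9 (-0.97) and Cdh18 (-1.25) in Micro nuclei and Cdh20 in oligodendrocytes (-0.31). In neuron populations the same held for Cdh4 in M10.Sim1|Trh (-0.39), M31.Th (-0.60) and M8.Nr5a1 (-0.0055), for Cdh20 in M11.GLUT (-0.76), M15.Nts (-1.34), M17.GABA (-0.66), M19.Ddc (-1.06), M21.Nfix (-0.044), M23.Sim1|Pou3f2 (-1.13) and M32.Pdyn/Grp (-0.96), for Cdhr3 in M14.GABA (-1.73) and M25.Ghrh (-1.70), for Cdh8 in M16.Npsr1 (-0.27) and M28.Tac2 (-0.11), and for Cdh6 in M18.Prlh (-0.35), M27.Trh (-0.22) and M29.Hcrt/Npvf (-0.0089). It also held for Cdh11 in M3.Pmch (-0.066), Pcdh11x in M30.Gal (-0.68), M35.Pomc (-1.31) and M36.Sst/Pnoc (-1.46), Pcdh9 in M33.Glp1r/Ebf1 (-0.80), Cdh9 in M34.Esr1/Npy1r (-1.56), Cdh24 in M37.Tbx19 (-0.97), Cdh13 in M9.Fezf1 (-0.13) and Cdh12 in M30.Gal (-0.034). The other type or population had the higher mean CPM, except for Cdh8 in M28.Tac2, Cdh12 in M30.Gal and Cdh6 in M29.Hcrt/Npvf. Leaving out 1 library turned 2 insulin values: Cdhr3 over all nuclei ran from -0.15 (without the Insulin library of run 232) to 1.29, and Cdh8 in neurons from -0.056 (without the Saline library of run 232) to 0.49, with -0.0043 without the Insulin library of run 230. Low counts limit the rest: of 40 members with UMIs, 29 passed the filter by cell type.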
